A study of Mus musculus with 3 samples.

Results

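Intermediate filaments are rope-like polymers of coiled-coil proteins that give cells and nuclei mechanical strength. Cytoplasmic members are used in a cell type's own combination, with keratin pairs in epithelia, vimentin in mesenchymal cells and many cells of neural crest origin, and neurofilaments in neurons. Lamins are the nuclear members, and they line the inner nuclear membrane of nearly every animal cell. The expression of 10 genes was measured here, chosen by name: *Vim*, *Nes*, *Gfap*, *Prph* and *Nefl* for cytoplasmic filaments of types III and IV, *Krt8* and *Krt18* for a keratin pair, and *Lmna*, *Lmnb1* and *Lmnb2* for the lamins. All 10 were found among the 22698 genes of the files.

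The RNA came from melan-a, a line of immortalized mouse melanocytes on a C57BL/6J background, which the labels derive from Ink4a-ARF-/- mice, and was measured by RNA-seq. The 3 samples, replicates 1, 3 and 4, are biological replicates of this line without any treatment. The medium of every sample was RPMI 1640 with 10% fetal bovine serum, 200 nM 12-O-tetradecanoylphorbol 13-acetate and 200 pM cholera toxin, so each level below is one in the presence of a phorbol ester and a cAMP-raising toxin. With 1 condition, no groups could be compared, and the comparisons are between genes within a replicate.

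Levels are the deposited FPKM, in which read counts are divided by gene length and library size. From the steps between low values, the scaled libraries held between 47000000 reads (replicate 3) and 66200000 (replicate 4). In these libraries 3 reads, taken as the lowest measurable level, came to between 0.0071 and 0.0456 FPKM on the members. Of 12 melanocyte markers, 11 were at 1 FPKM or more in all replicates, against 44.1% of all genes in the files. The highest was *Tyrp1* at 3144 ± 434 FPKM (SD, n = 3). *Kit* was the exception, at 0.68 ± 0.095 FPKM (SD, n = 3).

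The 7 members that were measurable spread over more than 3 orders of magnitude. *Vim* was the highest, *Lmna* and *Nes* followed at 142.1 to 335.11 FPKM, *Lmnb1* and *Lmnb2* were at ordinary levels, and *Prph* and *Gfap* lay near 1 FPKM. *Krt18* stayed below 3 reads in every replicate, and *Krt8* and *Nefl* were listed at 0. At 1 FPKM or more in all 3 replicates were 5 of the 10 members, against 44.1% of all genes in the files.

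**Figure D1:**
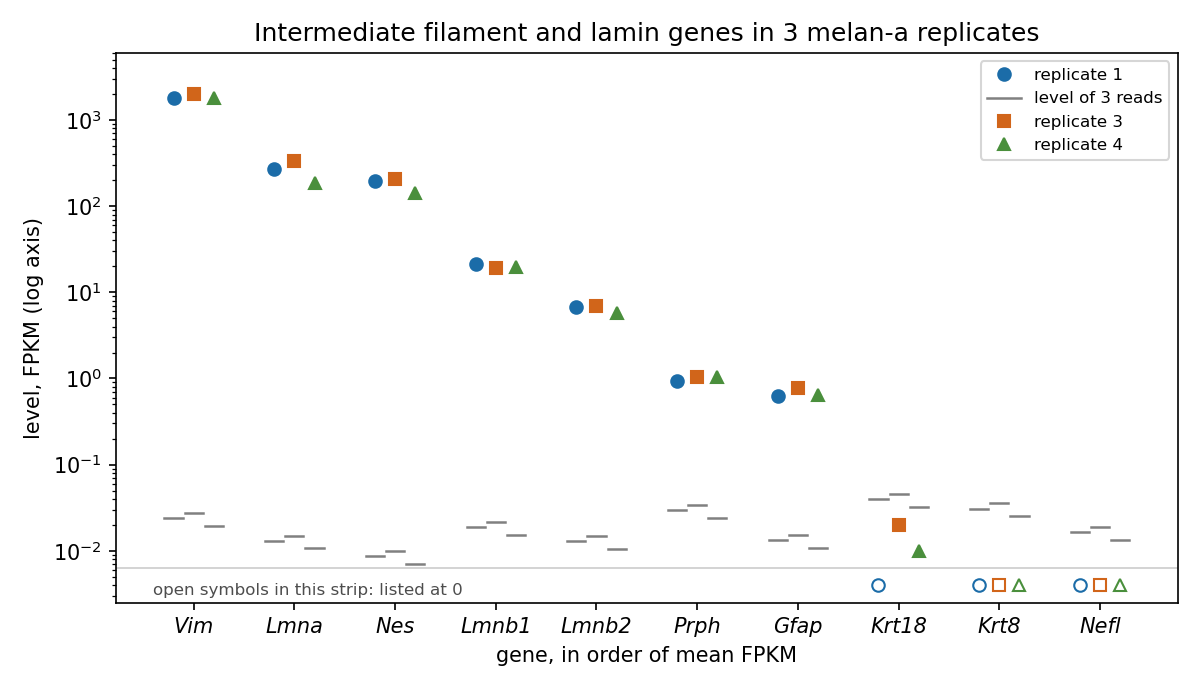
Level of each member in FPKM on a log axis, in order of the mean, with 1 symbol per replicate, gray bars at the level that 3 reads give in that replicate, and open symbols in a strip below for values listed at 0. *Vim* lies near 1865 FPKM, 7 members lie above their gray bars, and *Krt18*, *Krt8* and *Nefl* lie below them.

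The promoters of 4 genes are shown first, because they belong to the highest member (*Vim*), a member of the same filament type near 1 FPKM (*Prph*), the highest type IV gene (*Nes*) and a keratin gene below 3 reads (*Krt18*). Each is a RefSeq window of 300 bases in GRCm38.p6, a later build than the mm9 of the files, from 250 bases before to 50 after an annotated start, written along the gene's strand. Capitals mark matches to GCCNNNGG, the consensus searched for TFAP2A, on both strands, and to TATAAA on the strand of the gene. Overlapping matches are merged in one run of capitals.

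*Vim* (chr2:13574061-13574360, + strand): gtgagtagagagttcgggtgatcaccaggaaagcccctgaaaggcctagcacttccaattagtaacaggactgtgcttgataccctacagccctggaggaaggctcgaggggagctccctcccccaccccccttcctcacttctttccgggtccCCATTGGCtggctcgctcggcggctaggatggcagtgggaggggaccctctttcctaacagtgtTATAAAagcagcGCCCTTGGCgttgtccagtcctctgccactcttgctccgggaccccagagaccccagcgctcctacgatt
*Prph* (chr15:99054924-99055223, + strand): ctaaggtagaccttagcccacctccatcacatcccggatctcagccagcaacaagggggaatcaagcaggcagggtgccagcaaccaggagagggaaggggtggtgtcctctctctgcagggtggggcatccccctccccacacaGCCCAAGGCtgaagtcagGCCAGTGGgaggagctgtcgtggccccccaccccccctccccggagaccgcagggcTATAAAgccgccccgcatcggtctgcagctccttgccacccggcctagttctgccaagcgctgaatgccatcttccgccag
*Nes* (chr3:87970843-87971142, + strand): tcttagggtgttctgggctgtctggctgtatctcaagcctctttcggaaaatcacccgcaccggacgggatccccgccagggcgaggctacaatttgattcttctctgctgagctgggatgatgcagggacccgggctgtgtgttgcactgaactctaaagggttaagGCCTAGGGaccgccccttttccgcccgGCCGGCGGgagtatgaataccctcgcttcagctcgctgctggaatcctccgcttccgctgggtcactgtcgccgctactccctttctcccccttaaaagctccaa
*Krt18* (chr15:102027966-102028265, + strand): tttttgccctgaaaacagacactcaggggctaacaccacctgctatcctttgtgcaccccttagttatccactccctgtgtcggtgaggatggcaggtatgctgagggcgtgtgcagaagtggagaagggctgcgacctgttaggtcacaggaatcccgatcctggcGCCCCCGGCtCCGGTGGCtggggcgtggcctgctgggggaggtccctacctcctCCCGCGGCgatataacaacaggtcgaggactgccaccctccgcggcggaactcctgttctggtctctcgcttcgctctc

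Windows were taken for 8 of the 10 members, and the 8 genes had 10 windows between them. Windows on chromosome 18 were left out for the members, so *Lmnb1*, which lies there, was not examined. None was found for *Nefl*. The figures over all windows were taken without this filter. The windows of *Vim* and *Prph* each held TATAAA, starting 32 and 31 bases before the gene start, and that of *Krt8* held it 1 base before the start. Among all 32851 windows of the table, 8.3% held TATAAA at any position and 1.99% between 20 and 40 bases before the start. GCCNNNGG occurred in 9 of the 10 windows of the members and in 54.8% of all windows, with *Lmna* and *Lmnb2* counted by each of their windows. There were 3 matches for *Vim*, 3 for *Prph*, 2 for *Nes* and 4 for *Krt18*. The member windows had 54.7% to 64.7% GC, against a median of 52.7% over all windows. The part of GC content in these matches was not tested. The content of CpG dinucleotides did not follow the order of levels. It was 11 for *Vim*, 18 for *Nes*, 17 for *Krt18*, 10 for *Prph*, 6 for *Krt8* and 3 for *Gfap*, against a median of 7 over all windows. The windows of *Lmna* held 1 and 7, and those of *Lmnb2* 24 and 6. These matches describe the letters of the windows and show no binding.

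*Vim* encodes vimentin, the type III filament protein of mesenchymal cells and of cultured cells of many origins. In mm9 the gene spans 13495554 to 13504453 of chromosome 2 (plus strand), with 8 blocks of joined exons. Replicates 1, 3 and 4 had 1796.84, 1982.23 and 1815.85 FPKM. The 3 values lay close together, with a mean of 1865 ± 102 FPKM (SD, n = 3), and the gene ranked 16 of 22698. *Vim* alone made up between 0.474% and 0.506% of the summed FPKM of a replicate. Relative to *Actb*, which encodes cytoplasmic beta-actin, it stood at 0.887 ± 0.0127 (SD, n = 3). Of the *Actb* transcript, 46.9% lies in exact runs of at least 50 bases found elsewhere in the genome, and whether this lowered its value was not tested.

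*Nes* encodes nestin, a large type IV protein known from neural progenitors that builds filaments together with vimentin. It spans 87775000 to 87784373 of chromosome 3 (plus strand). Replicates 1, 3 and 4 had 195.26, 208.32 and 142.1 FPKM, a mean of 182 ± 35.1 FPKM (SD, n = 3) at rank 277. Replicate 4 was the lowest. *Vim* exceeded *Nes* by 9.20, 9.52 and 12.8 times in replicates 1, 3 and 4.

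*Prph* and *Gfap* encode the other type III proteins among the members, peripherin of peripheral neurons and the glial fibrillary acidic protein of astrocytes. *Prph*, on chromosome 15 from 98885605 to 98889409 (plus strand), had 0.93, 1.03 and 1.05 FPKM in replicates 1, 3 and 4, a mean of 1 ± 0.064 FPKM (SD, n = 3). *Gfap*, on chromosome 11 from 102748650 to 102762226 (minus strand), had 0.62, 0.77 and 0.65 FPKM, a mean of 0.68 ± 0.079 FPKM (SD, n = 3). Every value of *Prph* lay above every value of *Gfap*, by 1.34 to 1.62 times within a replicate. The values rest on about 94, 90 and 130 reads for *Prph* and 141, 153 and 182 for *Gfap*. In replicate 3 the 95% exact Poisson intervals, which cover counting error only, ran from 0.826 to 1.26 FPKM for *Prph* and from 0.654 to 0.904 FPKM for *Gfap*, and overlapped. In replicates 1 and 4 they did not. The order rests on the length by which reads are divided. The joined exons of *Gfap* measure 4218 bases and its longest protein-coding transcript 2648, and with the latter its mean is 1.08 FPKM, above *Prph*. *Vim* stood 1862 ± 115 times above *Prph* (SD, n = 3).

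*Nefl* encodes the light neurofilament subunit, which neurofilaments need to assemble. It spans 68701920 to 68707152 of chromosome 14 (plus strand) and was listed at 0 in the 3 replicates. On this gene 1 read is worth 0.0045 to 0.0063 FPKM, and in replicate 4, at 0.0045, it would have been rounded to 0. The level that 3 reads allow is at most 0.0189 FPKM. Its partners were also at the lower end, with *Nefm* at 0, 0 and 0.01 FPKM and *Nefh* at 0, 0 and 0.03 FPKM in replicates 1, 3 and 4. Of the joined exons of *Nefl*, 32.8% overlap exons on the other strand.

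The keratins *Krt8* (type II) and *Krt18* (type I) pair in simple epithelia and lie near each other on chromosome 15, *Krt8* from 101827142 to 101834773 on the minus strand and *Krt18* from 101858647 to 101862457 on the plus strand. *Krt18* was listed at 0, 0.02 and 0.01 FPKM in replicates 1, 3 and 4, which are the values of 0, 1 and 1 reads. *Krt8* was listed at 0 in every replicate. The genes differed in how much of their sequence is unique. Of the *Krt8* transcript, 80.2% lies in exact runs of at least 50 bases that occur again at 1 other place in the genome, on chromosome 7 from 24142113 to 24143830, which aligns at 97.9% identity. For *Krt18* this share was 7.71%, and for *Nefl*, *Vim*, *Nes*, *Lmna*, *Gfap* and *Prph* it was 0. The shares depend on the run length. With runs of at least 30 bases they were 88.7% for *Krt8*, 45.9% for *Krt18*, 3.81% for *Prph* and 1.78% for *Vim*. A read that lies wholly within an exact run maps to more than 1 place. How the counting treated such reads is not given in the sources used here, and their part in the zero of *Krt8* was not tested.

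The A-type lamin gene *Lmna* gives rise to lamins A and C by alternative splicing, which gene-level values do not separate. On chromosome 3 from 88285070 to 88313878 (minus strand), it had 273.29, 335.11 and 187.98 FPKM in replicates 1, 3 and 4. The mean was 265 ± 73.9 FPKM (SD, n = 3) at rank 180, and the highest replicate was 1.78 times the lowest. No other member varied as much among those at 1 FPKM or more.

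*Lmnb1* and *Lmnb2* encode the B-type lamins, which keep their farnesyl tail and stay at the nuclear membrane. *Lmnb1*, on chromosome 18 from 56867467 to 56913078 (plus strand), had 21.27, 19.04 and 19.51 FPKM in replicates 1, 3 and 4, a mean of 19.9 ± 1.18 FPKM (SD, n = 3) at rank 3270. *Lmnb2*, on chromosome 10 from 80363948 to 80380990 (minus strand), had 6.78, 6.99 and 5.76 FPKM, a mean of 6.51 ± 0.658 FPKM (SD, n = 3) at rank 6694. The ranges of the genes did not overlap. *Lmnb1* exceeded *Lmnb2* by 3.14, 2.72 and 3.39 times within replicates 1, 3 and 4, or 3.08 ± 0.335 times (SD, n = 3).

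*Lmna* stood far above both B-type genes together. The ratio of *Lmna* to the sum of *Lmnb1* and *Lmnb2* was 9.74, 12.9 and 7.44 in replicates 1, 3 and 4, a mean of 10 ± 2.73 (SD, n = 3). *Lmna* accordingly supplied 88.2% to 92.8% of the summed lamin FPKM. The ratio was highest in the replicate with the most *Lmna*, which is its numerator, and lowest in that with the least. The spread of *Lmna* between replicates is set beside its GC content below.

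**Figure D2:**
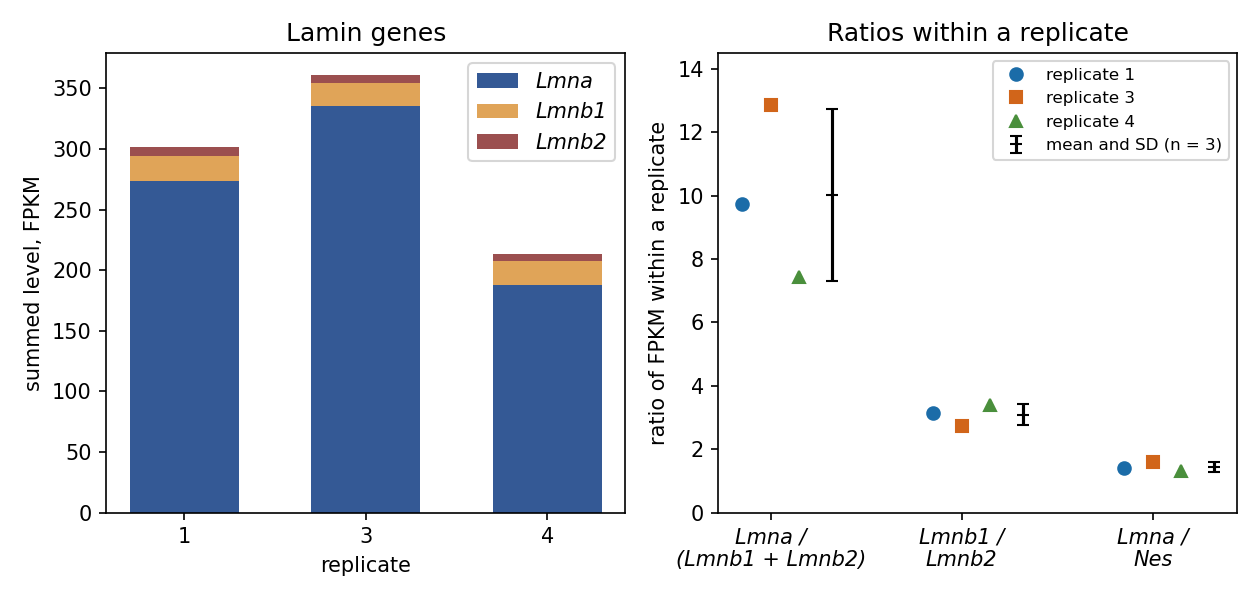
Left, FPKM of the 3 lamin genes stacked for each replicate; right, ratios of FPKM within a replicate, with 1 symbol per replicate and the mean and SD beside them. The *Lmna* part of the bars runs from 187.98 to 335.11 FPKM, and the ratio of *Lmna* to both B-type genes from 7.44 to 12.9.

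The order of the 7 measurable members was *Vim*, *Lmna*, *Nes*, *Lmnb1*, *Lmnb2*, *Prph* and *Gfap*, and each gene was higher than the next in 3 of 3 replicates. Neighbours were said to differ beyond their spread where their ranges did not overlap and the mean log2 ratio within replicates was more than 2 SDs from 0. This held for 5 of the 6 pairs of neighbours. The log2 ratio was 2.85 ± 0.37 for *Vim* over *Lmna* and 3.17 ± 0.29 for *Nes* over *Lmnb1*. It was 1.62 ± 0.16 for *Lmnb1* over *Lmnb2*, 2.70 ± 0.21 for *Lmnb2* over *Prph* and 0.57 ± 0.14 for *Prph* over *Gfap* (SD, n = 3 for each). With the longest protein-coding transcript as the length, the ratio of *Prph* over *Gfap* reversed to -0.11. The pair that did not pass was *Lmna* over *Nes*, at 0.52 ± 0.15 (SD, n = 3), and at 0.89 with that other length. It failed only because the ranges overlapped, as its mean log2 ratio was more than 2 SDs from 0. *Lmna* was 1.40, 1.61 and 1.32 times as high as *Nes* in replicates 1, 3 and 4, but its lowest value of 187.98 FPKM lay within the range of *Nes*. An exact two-sided sign-flip permutation test over the replicates gave p = 0.25 for each of the 6 pairs, the smallest value that 3 replicates allow, so no pair could reach 0.05.

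The spread between replicates differed among the members. *Vim* and *Lmnb1* had SDs of 0.078 and 0.084 on the log2 scale, below the median of 0.165 over 10006 genes at 1 FPKM or more with a known GC content. *Lmnb2* was near it at 0.15. *Nes* at 0.295 was above 80.4% of these genes and *Lmna* at 0.423 above 93.7%. In these libraries the difference between replicates moved with the GC content of the transcript. Between replicates 3 and 4 the median log2 ratio was -0.576 in the GC decile with the lowest content and 0.519 in that with the highest. *Lmna*, at 59.3% GC in the highest decile, had a log2 ratio of 0.83 between these replicates, 0.32 above the median of its decile. *Nes*, at 55.5% GC, had 0.55, which was 0.26 above its own. *Vim*, at 53.9% GC, had 0.13, and *Lmnb1*, at 53.3% GC, had -0.04, both below the 0.188 of the decile that holds them. After the median of each decile was subtracted, the SD was 0.174 for *Lmna*, 0.178 for *Nes*, 0.143 for *Lmnb1*, 0.064 for *Lmnb2* and 0.053 for *Vim*, against a median of 0.11 over all these genes. The part of GC content in the spread of these genes was not tested further.

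**Figure D3:**
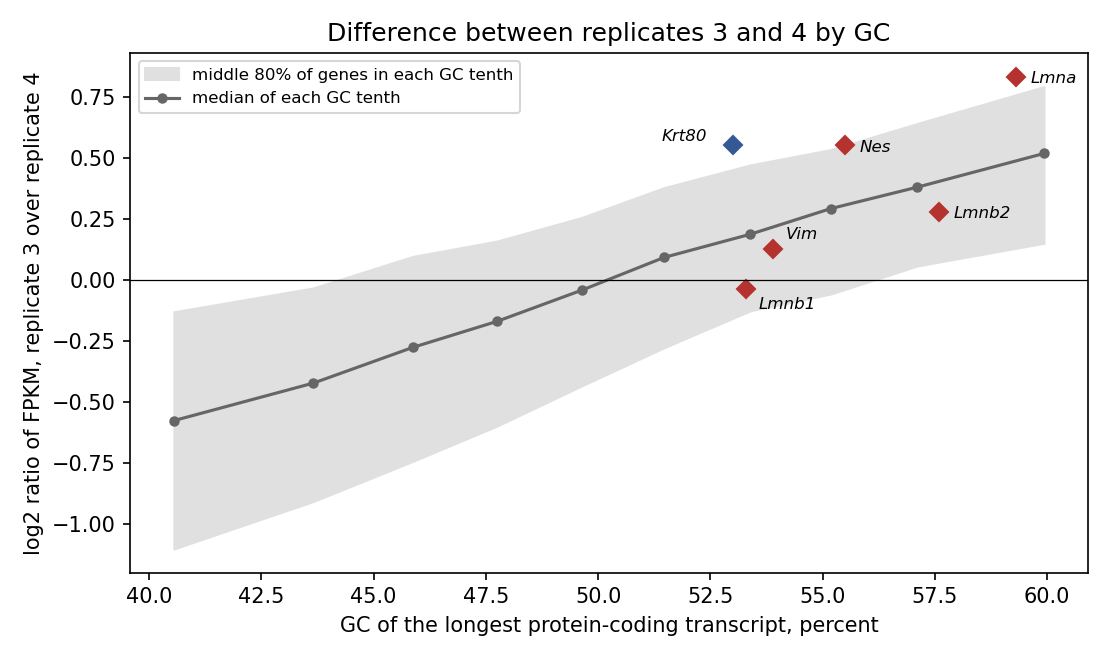
Log2 ratio of FPKM in replicate 3 over replicate 4 against the GC content of the longest protein-coding transcript, with the median (line) and middle 80% (band) of the genes in each GC decile, the 5 members at 1 FPKM or more (red) and *Krt80* (blue). *Lmna* at 0.83, *Nes* at 0.55 and *Krt80* at 0.56 lie above the upper edges of their deciles, which are 0.793, 0.535 and 0.472, and *Lmnb1* lies at -0.04, below the line.

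The members were set beside the rest of the gene family. Of 67 intermediate filament genes listed, 66 were matched, and 9 of them (13.6%) were at 1 FPKM or more in all 3 replicates, against 44.1% of all genes. At 0 in every replicate were 33 of the 66 genes. Over all 22698 genes, between 7928 (replicate 4) and 8325 (replicate 3) were at 0 in a single replicate, which is a looser limit. Besides *Vim*, *Nes* and the lamins, the 9 genes were *Krt80*, *Bfsp2*, *Sync* and *Synm*. *Vim* supplied 88.7%, 88.9% and 91.4% of the summed FPKM of cytoplasmic filament genes in replicates 1, 3 and 4, a mean of 89.7% ± 1.49 (SD, n = 3), and *Nes* supplied 8.71% ± 1.36 (SD, n = 3).

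*Krt80*, a type II keratin of epithelia, was the third cytoplasmic filament gene. It lies on chromosome 15 from 101177875 to 101200556 and had 24.76, 29.29 and 19.94 FPKM in replicates 1, 3 and 4, a mean of 24.7 ± 4.68 FPKM (SD, n = 3). These values are above those of *Lmnb1* in each replicate, although the ranges of the genes overlap. Type II keratins form filaments with type I keratins. Of the 27 type I keratin genes, 0 reached 1 FPKM in all replicates, against 44.1% of all genes. The highest, *Krt10* of the upper epidermis, had 0.51, 0.29 and 0.67 FPKM. Of the *Krt80* transcript, 1.94% lies in exact copies of at least 50 bases elsewhere, and its exons overlap none on the other strand. For 7 of the 66 filament genes, all keratins, over 50% of the transcript lies in such copies, namely *Krt8*, *Krt16*, *Krt6a*, *Krt6b*, *Krt81*, *Krt83* and *Krt86*, and the low values of these genes carry the same limit as that of *Krt8*.

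The 3 other genes were low. *Bfsp2*, which encodes phakinin of the lens, had a mean of 2.59 FPKM. *Sync* and *Synm*, which encode syncoilin and synemin, partners of type III filaments best known from muscle, had 2.03 and 1.63 FPKM. Of the exons of *Sync*, 27.3% overlap exons on the other strand, and 12.5% of those of *Bfsp2*.

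**Figure D4:**
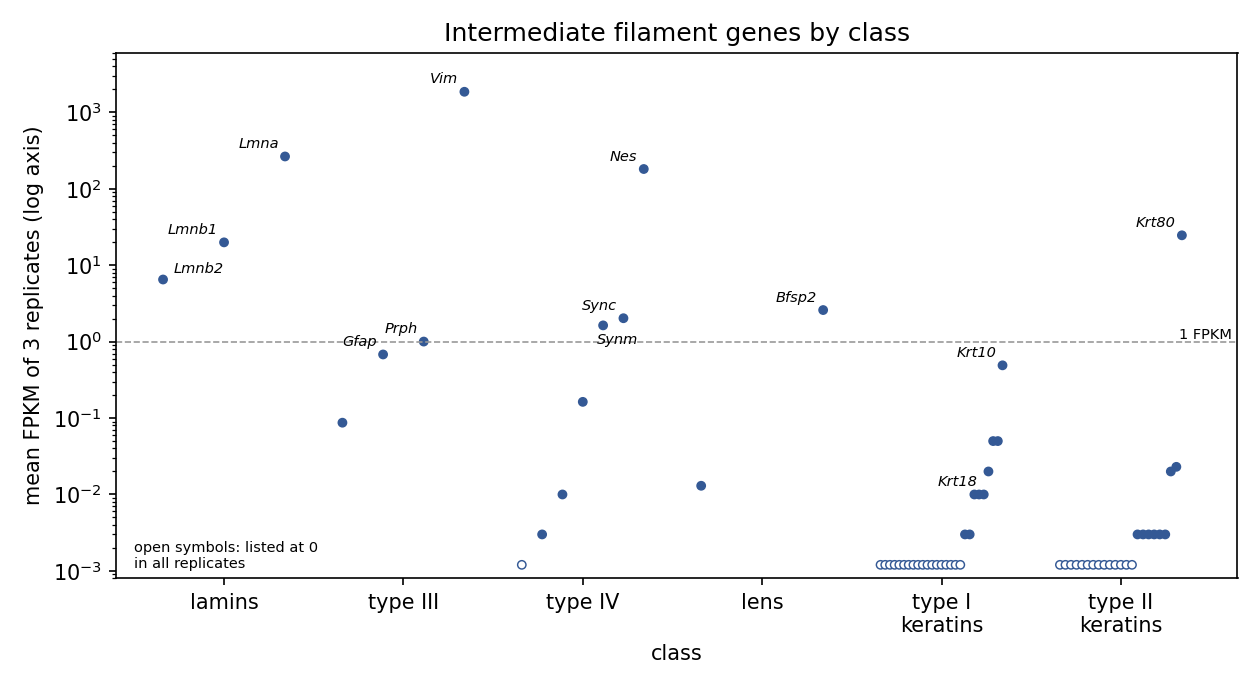
Mean FPKM of 3 replicates on a log axis for the 66 matched intermediate filament genes, by class, with genes at 0 in all replicates as open symbols at the bottom. In the keratin classes *Krt80* at 24.7 FPKM lies alone above 1 FPKM, with *Krt10* next at 0.49.

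Genes whose products work with the lamins were measured from fixed lists. Of 13 matched genes of the lamina and nuclear envelope, 11 were at 1 FPKM or more in all replicates, against 44.1% of all genes. The highest were *Banf1*, whose product links DNA to proteins of the lamina, at 181 ± 6.89 FPKM, *Emd*, which encodes emerin of the inner nuclear membrane, at 52 ± 4.85, and *Sun2*, part of the bridge from lamina to cytoskeleton, at 30.4 ± 5.34 (SD, n = 3 for each). *Lbr*, the lamin B receptor, had 9.76 ± 0.896 FPKM (SD, n = 3). The 2 genes that did not pass were *Syne2*, with 1.16, 0.86 and 1.54 FPKM, and *Syne4*, with 0.12, 0.16 and 0.31 FPKM.

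All 5 genes for the processing of lamin tails were at 1 FPKM or more in all replicates, against 44.1% of all genes. *Fnta*, a subunit of the farnesyltransferase, had 38.6 ± 0.567 FPKM, and *Zmpste24*, the protease that cleaves prelamin A, had 31.1 ± 1.25 (SD, n = 3 for each). *Rce1*, which trims the farnesylated tail, had 14.7 ± 2.16 FPKM (SD, n = 3). The lowest of the 5 was *Fntb*, the other farnesyltransferase subunit, at 10.7 ± 1.06 FPKM (SD, n = 3).

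Of the 6 matched genes for proteins that link filaments to other structures, 3 (50%) were at 1 FPKM or more in all replicates. This is near the 44.1% of all genes in the files. *Plec*, which encodes plectin, had 37.4 ± 8.22 FPKM, *Dst* 12.2 ± 3.56 and *Macf1* 11.4 ± 2.99 (SD, n = 3 for each), and all of these are broad linkers of the cytoskeleton. Replicate 3 was the highest for *Plec* and the lowest for *Dst* and *Macf1*. Their transcripts have 61.3%, 49.6% and 46.9% GC, and the part of GC content in this difference was not tested. The other 3 genes, *Dsp*, *Ppl* and *Evpl*, encode proteins of desmosomes and the cornified envelope of epithelia and lay at 0.023, 0.167 and 0.02 FPKM.

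**Figure D5:**
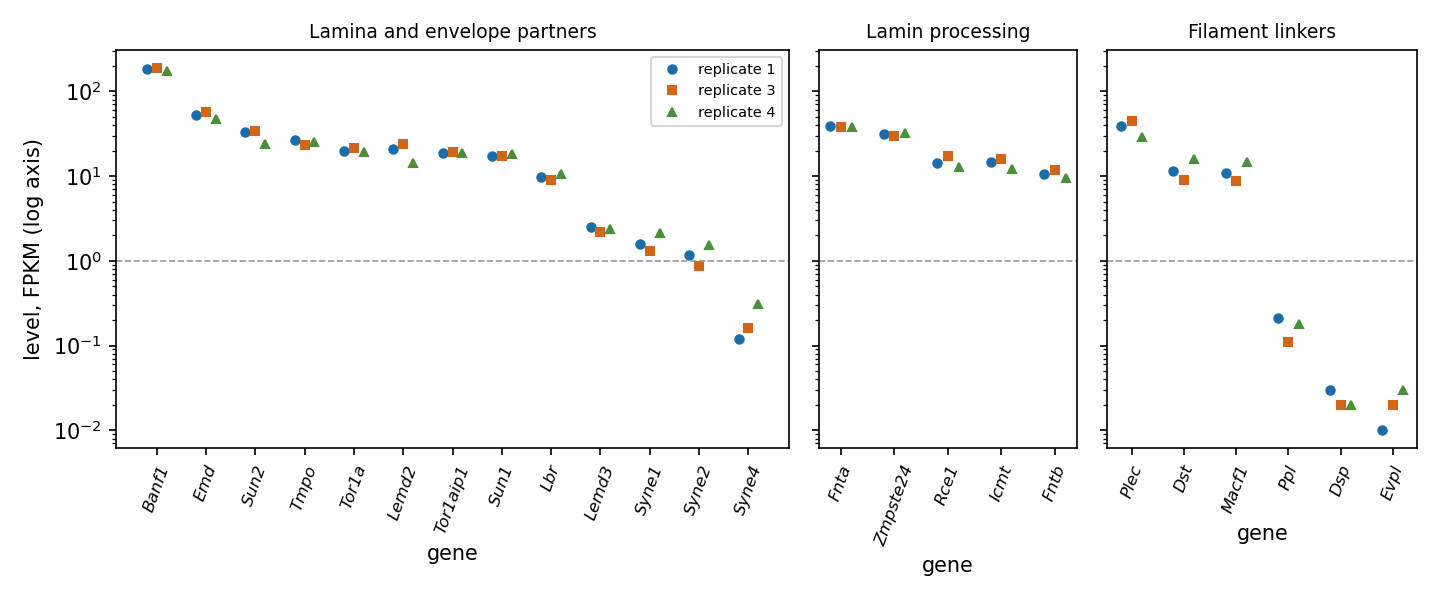
Level in FPKM on a log axis for lamina and envelope partners, lamin processing genes and filament linkers, with 1 symbol per replicate and a dashed line at 1 FPKM. *Banf1* is highest near 181 FPKM, and the linkers fall into 3 genes at 8.75 FPKM or more in every replicate and 3 at 0.21 FPKM or less.

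Marker lists of other cell types were low where they concern keratin and neurofilament cells. The simple epithelium and keratinocyte lists include keratins, the neuron list neurofilament genes and *Prph*, and the muscle list a type III filament gene. These genes are also in the filament lists above, so the low sums are not independent of the values given there. The 8 markers of simple epithelia summed to 0.12 to 0.2 FPKM, led by *Krt19*, and the 10 keratinocyte markers to 2.35 to 3.02 FPKM, led by *Sfn*. *Krt5* and *Krt14*, which define basal keratinocytes, had means of 0.023 and 0.01 FPKM. The 11 neuron markers summed to 1.26 to 1.4 FPKM, most of it from *Prph*. The 8 fibroblast markers summed to 1.62 to 1.97 FPKM, led by *Col1a1*, the 5 muscle markers to 0.18 to 0.45, led by *Ckm*, and the 5 endothelium markers to 0.01 to 0.03, led by *Kdr*. The 5 immune markers summed to 13.2 to 15 FPKM, nearly all from *Lyz2*.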

How the data were processed

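Stranded mRNA libraries of 3 melan-a samples were sequenced on 3 lanes each. Per the study's methods and the labels, the authors trimmed 10 bases at the 5' end, aligned reads to mm9 with STAR 2.3.0e, removed rRNA reads and counted on Ensembl release 67 with HTSeq 0.5.3p3. The deposited values are FPKM with 2 decimals, for which the authors scaled library sizes by TMM (a trimmed mean). The gene length, the strand setting and the treatment of multiply mapped reads are not given in the sources used here.

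Symbols and mm9 positions were taken from GENCODE (Ensembl release 65) and found for 22324 genes of 22698. Library sizes were fitted to genes of at most 800 bases with 1 transcript, as the size that put low values closest to whole reads. The joined exon length was compared with the longest protein-coding transcript on only 2 to 5 genes with more transcripts per replicate. The mean distance from whole reads was 0.023 to 0.06 for the joined exons and 0.074 to 0.18 for the transcript. *Krt72* and *Syne4* were matched through RefSeq synonyms (GRCm38.p6). *Krt85*, *Syne3* and *Eppk1* were not matched. Transcripts were searched against mm9 with blastn 2.17.0. Ratios were taken within replicates without a pseudocount, and pairs of genes were tested by an exact sign-flip permutation test. Scripts were checked on simulated data with scipy 1.17.1, pandas 2.3.3 and numpy 2.4.6 under Python 3.11.15, and figures were drawn with matplotlib 3.10.9.

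The members and lists were chosen with earlier results of these data known. Named are the members, filament genes at 1 FPKM or more, the 3 highest genes of each partner list and the highest of each marker list. The result of 1 marker list is not reported here. *Lbr*, *Fntb*, *Syne2*, *Syne4*, *Krt10*, *Nefm*, *Nefh*, *Krt5*, *Krt14*, *Kit*, *Dsp*, *Ppl*, *Evpl*, *Actb*, *Gapdh*, *Ppia* and *Hprt*, and the keratins with copies, were named after their values were seen. Whether the replicates came from separate cultures is stated only as biological replicates, and SDs measure the spread between these samples.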

Additional observations from a re-analysis of the deposited data

How the results depend on the processing

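Leaving out each replicate, rescaling each sample to sum to 1000000 and taking the median over replicates reversed no order of neighbouring members, and the counts and ratios recomputed this way stayed within their limits of 1.5 times or 1 SD. The length by which reads are divided mattered more. With the longest protein-coding transcript, the log2 ratio of *Prph* over *Gfap* reversed to -0.11, so that 5 of 6 neighbours kept their order. The ratio of *Lmna* over *Nes* moved to 0.89, that of *Lmnb1* over *Lmnb2* to 1.40 (a ratio of 2.65) and that of *Lmnb2* over *Prph* to 2.97. A pseudocount of 1 FPKM moved *Lmnb2* over *Prph* to 1.90 and *Prph* over *Gfap* to 0.25. Counting filament genes above 0 in all samples gave 18 of 66 in place of 9. The share of all genes at that lower limit was not computed, so this count has no background beside it. Of the other 67 recomputed levels and ranks of members, 55 stayed within 1 SD or at the same rank. Of the 12 that moved, 8 did so by the rescaling, which changes the unit, and 4 by the length. No paired analysis was possible because there is 1 group. At this depth *Krt18*, *Krt8* and *Nefl* lie below the level of 3 reads, and the zero of *Krt8* also carries the limit of its copy elsewhere in the genome.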

Other observations

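Of 4 genes that every cell uses, *Gapdh* and *Ppia* were listed at low values and have most of their transcript in copies elsewhere in the genome, while *Actb*, with a smaller share in copies, was high. *Gapdh* had a mean of 7.72 FPKM, and 86.1% of its transcript lies in exact runs of at least 50 bases found at 235 other places. *Ppia* had 1.81 FPKM with 63.5% at 41 places. *Actb* had 2103 FPKM with 46.9%, and *Hprt* had 55.9 FPKM with 0%. These values stand beside that of *Krt8*, whose share was 80.2%. Whether the copies lowered any of these values was not tested.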
